A study of Mus musculus with 9 samples.

Results

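The genes of 3 related families of zinc-dependent proteases, the matrix metalloproteinases (MMPs), the ADAMs and the ADAMTS proteases, and of their inhibitors, the TIMPs, were followed in stromal cells of the developing mouse liver. Members were chosen by gene symbol alone: every measured gene whose symbol is Mmp, Adamts, Adam or Timp followed by its number was taken, 78 of 19938 genes. They were 22 MMP, 18 ADAMTS, 34 ADAM and 4 TIMP genes. Adamts2 and Mmp15 carry such symbols in RefSeq but had no probe set of their own among the annotated probe sets and were not analysed here.

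Liver cells of C57BL/6 mice had been sorted as CD45-Ter119-Cxcl12-DsRed+ stroma, that is, without the surface markers of white blood cells and of the red cell lineage and with red fluorescence from the gene of the chemokine Cxcl12. All samples had the genotype Cxcl12DsRed/+, so every group carried 1 DsRed allele, and the groups differed in stage: the embryonic stage E15.5 and the postnatal stages P5 and P10, with 3 arrays each. The series describes 3 independent samples of each stage and does not say whether an array stands for 1 animal, a litter or a pool, so the p-values speak for the scatter among these arrays, which may be technical. A batch that followed stage cannot be told apart from stage, since no array date or batch is given. The gate follows 1 marker gene and does not by itself separate the cell types that express it.

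MMPs cut collagens, proteoglycans and other proteins of the extracellular matrix, and most are made as inactive precursors. ADAMTS proteases are secreted and cut proteoglycans, procollagens and blood proteins, while many ADAMs sit in the plasma membrane and release the outer parts of growth factors, receptors and adhesion proteins. TIMPs occupy the active sites of these enzymes, and in the liver the balance of MMPs and TIMPs in stellate cells, the vitamin A storing pericytes, is best known from the build-up and removal of scar matrix.

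Values are log2 signals, so a difference of 1 is a doubling. Stages were compared within a probe set, because probe sets of different genes do not share a scale, and members are not ranked by signal. Differences carry standard errors from a linear model over all 9 arrays (limma), and a gene was called when its p-value, adjusted over all 19938 genes, was under 0.05.

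The sort and the markers of the cells it could hold were looked at first. Cxcl12 averaged 10.98 ± 0.32 (SD over 3 arrays) on the E15.5 arrays, and 10.17 ± 0.19 and 10.13 ± 0.16 on the P5 and P10 arrays. Ptprc, the gene of CD45, lay near 5.1 at each stage (5.05, 5.11 and 5.10), below the background level used here. Of 10 markers of hepatic stellate cells, 10 fell at P5 and 10 at P10 against E15.5, and their mean log2 signal per array ran from 9.75 to 9.94 at E15.5, 8.06 to 8.39 at P5 and 7.81 to 8.03 at P10. The log2 of their summed signal ran from 13.86 to 14.07, 12.23 to 12.61 and 11.93 to 12.30. Of 8 measured hepatocyte markers, 7 rose at P5 and 5 at P10, and their mean log2 signal went from between 9.57 and 9.74 at E15.5 to between 12.22 and 12.30 at P5 and between 12.28 and 12.48 at P10. Alb, the albumin gene, was near 13.1 to 13.2 at every stage, whereas Cyp2e1 went from 5.53 to 12.69 and 12.63. The mean log2 signal of 10 sinusoidal endothelial markers was 6.75 to 6.96 at E15.5 and 6.78 to 7.27 at P10, and 6.53, 8.05 and 8.41 on the P5 arrays, where arrays 2 and 3 stood apart. Of 7 mesothelial markers 5 rose and 1 fell at P5, and 6 fell from P5 to P10. Of 4 measured megakaryocyte markers 3 fell at P5 and P10. Of 10 macrophage markers 5 were near background at every stage, Adgre1 among them. Against E15.5, 2 of the 10 rose and 1 fell at P5, and 1 rose and 1 fell at P10. The one that fell was Cd68, with stage means of 7.01, 6.24 and 5.91. The 9 granulocyte markers averaged 6.36 on E15.5 array 2 and 5.54 to 5.91 on the other arrays. Of the 9, 1 rose and 0 fell at P5 and at P10 against E15.5, namely Prtn3 (1.32 and 1.43). The 4 measured erythroid markers averaged 6.79 to 7.50. Of these 4, 2 fell at P5, and 2 fell and 1 rose at P10 against E15.5. Slc4a1 differed from E15.5 by -1.47 and -1.71, while Alas2 was higher by 1.12 at P10.

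Many members lay at or close to the background level at every stage. As the value table has no detection p-value, the signals of 1203 genes of olfactory, vomeronasal and trace amine receptors, which are not expected in liver, served as a stand-in for genes without RNA. Their 95th percentile was 5.85, 5.89 and 5.85 for the 3 stages in turn. At every stage 37 of the 78 members had a mean at or below that level, beside 6030 of all 19938 genes. Another 37 members were above it at every stage and 4 at some stages. Near background were 21 of 34 ADAM, 12 of 22 MMP, 3 of 18 ADAMTS and 1 of 4 TIMP genes, with array values between 3.91 and 6.15. With the 30th percentile of all genes as the level, 31 were near background, and with the median of the receptor genes, 11.

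**Figure D1:**
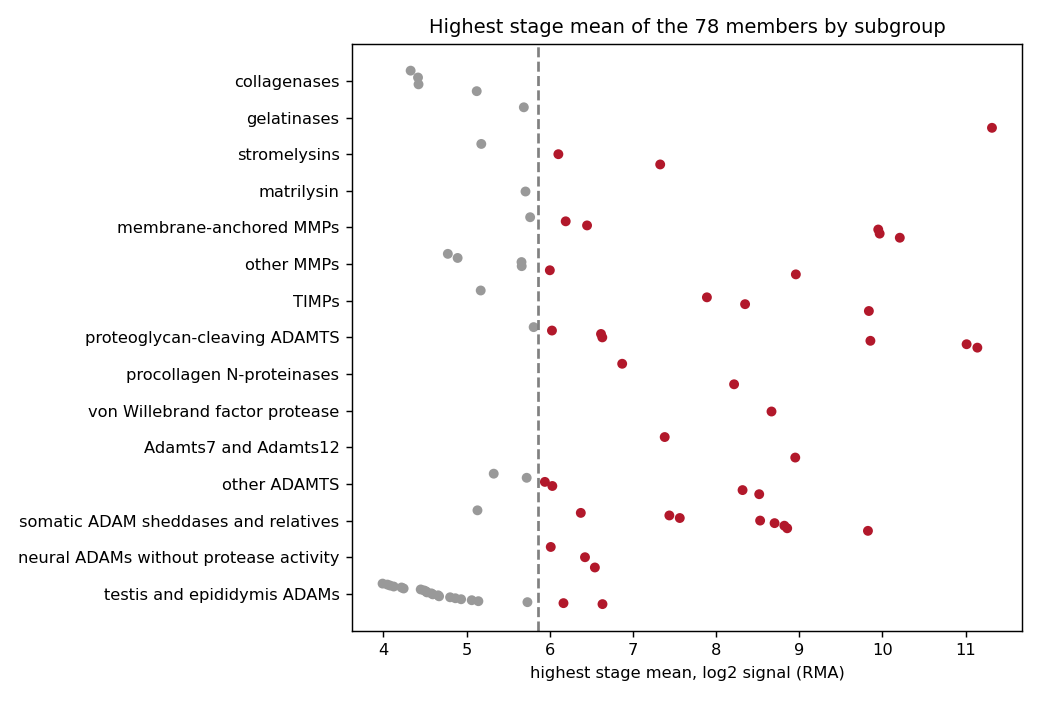
Highest stage mean (log2 signal) of each of the 78 members, by role, with 1 point per gene; the dashed line marks the 95th percentile of chemosensory receptor genes, averaged over stages. Grey points are the 37 members near background at every stage, among them all 4 collagenase genes and 20 of the 22 testis and epididymis ADAM genes.

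The interstitial collagenases, which make the first cut in fibrillar collagen, were all near background: Mmp13, Mmp8, Mmp1a and Mmp1b had stage means between 4.25 and 5.12. So were the gelatinase gene Mmp9, the stromelysin gene Mmp3, the matrilysin gene Mmp7, the GPI-anchored Mmp25, the macrophage elastase gene Mmp12, the tooth enamel protease gene Mmp20, and Mmp21 and Mmp27. Of 22 ADAMs known from testis, sperm or epididymis 20 were near background, as was Adam28. Among the others near background were Adamts6, Adamts19, Adamts20 and Timp4. Mmp1a and Mmp1b, Adam6a and Adam6b, and the group of Adam24 to Adam39 are recent copies of each other, so single probe sets may read more than 1 of them.

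Many of the MMP genes near background are neighbours. In RefSeq gene order, 10 MMP genes stood next to each other on chromosome 9 (Mmp13, Mmp12, Mmp1b, Mmp3, Mmp1a, Mmp10, Mmp8, Mmp27, Mmp20 and Mmp7), 9 of them near background and 0 of the 10 called in any comparison of stages (limma; at an unadjusted p under 0.05, Mmp3 passed at P5 against E15.5 and at P10 against P5). The exception was Mmp10, a stromelysin, with means of 6.03, 6.10 and 6.10, just above the level. By contrast Adamts1 and Adamts5, neighbours on chromosome 16, were both called. The 150 bases before the RefSeq transcription start could be read for 48 of the 78 members, this cluster included. The following 9 windows (RefSeq, GRCm38.p6, 5′ to 3′) set 4 genes of this cluster beside 5 members that fell with age. They are examples, and their motifs do not stand for all members. Capitals mark 4 motifs that were searched on both strands. The AP-1 motif, bound by pairs of Fos and Jun proteins, was spelled TGAGTCA. The TATA box, where the basal transcription machinery can bind, was spelled TATAAA. The GC box, which Sp factors recognise, was spelled GGGCGG. The motif CCAAT, bound by the factor NF-Y, was searched by these letters.
Mmp13, chr9:7272364-7272513, plus strand: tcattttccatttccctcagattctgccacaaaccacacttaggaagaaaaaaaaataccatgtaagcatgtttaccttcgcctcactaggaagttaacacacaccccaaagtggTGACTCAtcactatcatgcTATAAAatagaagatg
Mmp1a, chr9:7463991-7464140, plus strand: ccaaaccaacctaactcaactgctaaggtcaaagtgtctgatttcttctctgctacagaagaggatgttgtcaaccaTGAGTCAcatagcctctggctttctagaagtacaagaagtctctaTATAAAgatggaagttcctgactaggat
Mmp3, chr9:7445672-7445821, plus strand: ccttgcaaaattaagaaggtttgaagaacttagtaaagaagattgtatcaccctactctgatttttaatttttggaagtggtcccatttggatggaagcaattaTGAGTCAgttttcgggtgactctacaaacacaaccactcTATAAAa
Mmp10, chr9:7502192-7502341, plus strand: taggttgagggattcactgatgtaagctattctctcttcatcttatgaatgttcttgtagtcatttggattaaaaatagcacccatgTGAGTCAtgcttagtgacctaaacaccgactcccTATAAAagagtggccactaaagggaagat
Mmp14, chr14:54431448-54431597, plus strand: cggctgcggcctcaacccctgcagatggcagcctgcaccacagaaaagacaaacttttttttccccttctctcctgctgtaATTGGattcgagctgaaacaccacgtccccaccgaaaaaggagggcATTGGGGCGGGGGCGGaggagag
Timp2, chr11:118355412-118355561, minus strand: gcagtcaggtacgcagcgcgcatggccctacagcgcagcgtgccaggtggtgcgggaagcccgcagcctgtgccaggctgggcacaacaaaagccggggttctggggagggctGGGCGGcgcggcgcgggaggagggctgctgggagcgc
Timp1, chrX:20870016-20870165, plus strand: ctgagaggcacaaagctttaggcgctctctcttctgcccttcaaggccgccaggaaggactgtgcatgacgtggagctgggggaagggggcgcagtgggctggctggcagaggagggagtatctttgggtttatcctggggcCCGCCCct
Adamts1, chr16:85803114-85803263, minus strand: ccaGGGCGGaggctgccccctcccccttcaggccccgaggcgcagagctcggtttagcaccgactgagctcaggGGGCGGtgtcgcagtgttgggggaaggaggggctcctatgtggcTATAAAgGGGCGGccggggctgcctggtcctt
Adamts9, chr6:92943535-92943684, minus strand: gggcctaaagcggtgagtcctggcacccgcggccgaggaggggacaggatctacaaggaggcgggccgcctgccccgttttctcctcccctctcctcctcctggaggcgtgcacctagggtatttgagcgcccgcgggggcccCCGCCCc

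A member was counted when any of its windows held a motif, whereas the shares of all are of single windows. The AP-1 letters were present for 7 of the 10 cluster genes and for 2 of the other 38 members (Adam19 and Adam29), against 2.84% of 32851 RefSeq windows of the same length. They began 35 bases before the start in Mmp13, 46 in Mmp3, 63 in Mmp10 and 73 in Mmp1a. The TATA letters were present for 7 of 10 cluster genes and 3 of 38 others, against 7.57% of all windows. The GC box was present for 0 of 10 cluster genes and 18 of 38 others, against 28.6% of all windows. Of the members with a change of at least 2-fold that are given by array below, 13 had a window and 8 of these held it. CCAAT was in 1 of 10 and 10 of 38, against 24.5%, and in Mmp14 it overlaps a GC box on the other strand. As background, AP-1 is known to induce several of these MMP genes. These matches describe the letters in the windows and were tested for no link with the signals.

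From E15.5 to P5, 22 of the 78 members fell, 3 rose and 53 did not pass. Of all genes, 17.7% were called lower and 17.9% higher in this comparison (35.6% in all), while 28.2% of the members were called lower. By P10, 27 members were lower than at E15.5, 3 higher and 48 did not pass, beside 18.6% of all genes called lower and 20.1% higher (38.7% in all). With each array centred on the median of all genes, the P10 split was 13 higher and 23 lower. A drop of at least 2-fold was called for 14 members at P5 and 19 at P10, where 6.8% and 8.21% of all genes had one, and a rise of that size for Mmp19 alone, where 7.2% and 9.06% of all genes had one. From P5 to P10 a drop of that size was called for 4 members and a rise for 0, beside 0.813% and 0.396% of all genes. Between P5 and P10, 10 members fell and 0 rose, with 2.89% of all genes called lower and 2.76% higher (5.65% in all); at an unadjusted p under 0.05, limma gave 15 lower and 1 higher member, Mmp9. The groups of arrays did not overlap, with the later stage lower, for 23 members at P5 and 30 at P10 against E15.5 and for 19 at P10 against P5, beside 21.1%, 23.8% and 9.66% of all genes. With the later stage higher they did not overlap for 8, 9 and 5 members, beside 24.1%, 27.9% and 10.6%.

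The median member moved little, and 37 of the 78 lay near background. It differed by -0.0045 at P5 and -0.04 at P10 from E15.5 and by -0.085 from P5 to P10, beside 0.029, 0.024 and -0.0015 for all genes, and the values at P5 and P10 against E15.5 became 0.027 and 0.056 when arrays were centred. Of the 18 ADAMTS genes 8 fell and 1 rose at P5 and 9 fell at P10 (medians -0.21 and -0.37). Of the 22 MMP genes 5 fell and 1 rose at P5, and 6 fell and 2 rose at P10. Of the 34 ADAM genes 8 fell and 1 rose at P5, and 10 fell and 1 rose at P10. Of the 4 TIMP genes 1 fell at P5 and 2 at P10. From P5 to P10, 4 MMP, 2 ADAMTS, 2 ADAM and 2 TIMP genes fell.

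These changes ran beside those of the sorted population. The stellate cell markers had a median log2 difference of -2.07 at P5 and -2.29 at P10 against E15.5, and 2 of 10 fell between P5 and P10. In bulk samples, fewer cells of a type and less RNA per cell cannot be told apart. The part of the cell mixture in the members' changes was not tested. Without P5 arrays 2 and 3, the arrays with high endothelial markers, an omission chosen after seeing the data, 21 members fell and 2 rose at P5, 26 fell and 2 rose at P10, and 9 fell from P5 to P10.

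**Figure D2:**
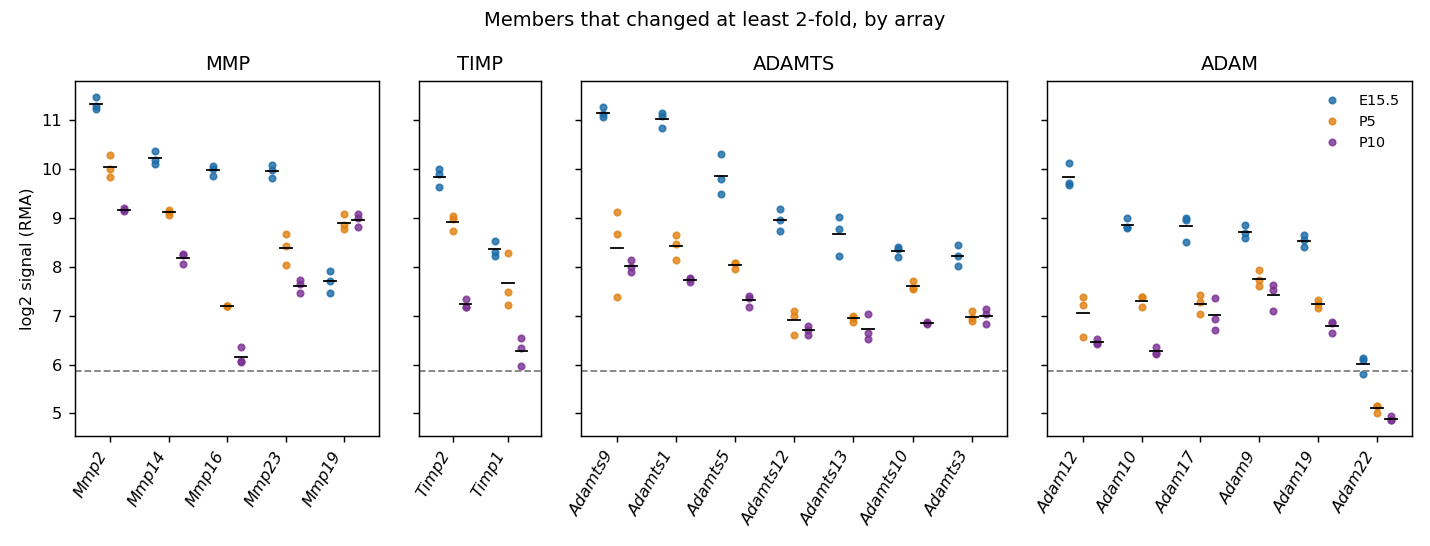
Log2 signals on the 9 arrays of the 20 members that changed at least 2-fold in a comparison and lay above background at a stage; points are arrays (blue E15.5, orange P5, purple P10), bars are stage means, and the dashed line is the background level. For 19 of the 20 the E15.5 arrays lie highest on average; Mmp19 is the exception, with 7.47 to 7.92 at E15.5 and 8.77 to 9.08 after birth.

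Among gelatinases, which cut denatured collagen and basement membrane collagen, Mmp2 fell in steps. Its log2 signals were 11.46, 11.28 and 11.22 at E15.5, 10.28, 9.99 and 9.83 at P5, and 9.15, 9.20 and 9.14 at P10. The 3 stages did not overlap. Its steps were -1.29 ± 0.11 (SE) from E15.5 to P5 (adjusted p = 4.55e-05) and -0.87 ± 0.11 from P5 to P10 (adjusted p = 0.00479), so that it was 4.46-fold lower at P10 than at E15.5. The other gelatinase gene, Mmp9, went from 5.33 to 5.49 and 5.69 and was called higher at P10 against E15.5 (0.36 ± 0.077, adjusted p = 0.00523), with every mean under the background level.

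Of the 6 membrane-anchored MMPs, which act at the cell surface, 3 fell at P5 and 4 at P10. Mmp14 (MT1-MMP), the activator of proMMP2, had 10.36, 10.18 and 10.09 at E15.5, 9.05, 9.16 and 9.12 at P5, and 8.25, 8.05 and 8.23 at P10. Again the stages did not overlap, and the steps were -1.10 ± 0.087 and -0.93 ± 0.087 (adjusted p = 2.33e-05 and 0.00112). Mmp16 (MT3-MMP) went from 10.04, 9.86 and 9.999 to 7.19 on each P5 array and to 6.06, 6.35 and 6.07. Its 14-fold drop from E15.5 to P10 (-3.81 ± 0.090, adjusted p = 2.57e-08) was the largest of any member, and the equal P5 values are ties in the deposited table that lower its SD. Mmp23, whose membrane anchor lies at its N-terminal end, had 9.96, 9.82 and 10.07 at E15.5, 8.66, 8.42 and 8.04 at P5, and 7.64, 7.72 and 7.47 at P10. Its steps were -1.58 ± 0.15 and -0.76 ± 0.15 (adjusted p = 7.34e-05 and 0.0267). The second step of Mmp23 did not pass without E15.5 array 1, P5 array 1 or 2, or any 1 of the P10 arrays (adjusted p = 0.0519 to 0.0873). Mmp17 (MT4-MMP), close to background at 6.19, 6.04 and 5.94, was called lower at P10 against E15.5 (-0.26 ± 0.078, adjusted p = 0.0316). That call was lost without E15.5 array 2 or 3 or P10 array 1 or 3 (adjusted p = 0.0781 to 0.108) and, at -0.16, with arrays centred. Mmp24, MT5-MMP (6.24, 6.45 and 6.34) did not pass.

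Mmp19, an MMP found in many tissues that cuts basement membrane proteins, was the member with a rise of at least 2-fold. It had 7.71, 7.92 and 7.47 at E15.5, 8.77, 8.84 and 9.08 at P5, and 8.81, 8.99 and 9.07 at P10. Every postnatal array lay above every E15.5 array, and the P5 and P10 arrays overlapped. The rise was 1.2 ± 0.13 at P5 (2.29-fold, adjusted p = 0.00015) and 1.26 ± 0.13 at P10 (2.40-fold, adjusted p = 8.19e-05), with 0.06 ± 0.13 between P5 and P10. Hepatocyte markers rose over the same interval, and their part in this rise was not tested. Of the stromelysins, Mmp11, a stromal MMP activated inside the cell by furin, fell (-0.73 ± 0.11 at P5 and -0.97 ± 0.11 at P10, adjusted p = 0.000903 and 0.000126). Mmp28, epilysin (5.91, 6.00 and 5.91) did not pass.

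Of the 4 TIMP genes, Timp2 had the largest drop at P10. Its log2 signals were 9.99, 9.63 and 9.89 at E15.5, 9.02, 8.96 and 8.74 at P5, and 7.18, 7.18 and 7.34 at P10. The stages did not overlap, and the steps were -0.93 ± 0.11 to P5 (adjusted p = 0.00026) and -1.67 ± 0.11 to P10 (adjusted p = 0.000484). Timp1, which is induced in scarring liver, had 8.53, 8.30 and 8.22 at E15.5, 7.48, 8.27 and 7.22 at P5, and 6.55, 5.97 and 6.34 at P10. P5 array 2 lay inside the E15.5 range, and every P10 array lay below all others. Timp1 was 4.18-fold lower at P10 than at E15.5 (-2.06 ± 0.26, adjusted p = 0.000286), its difference at P5 did not pass (-0.69 ± 0.26, adjusted p = 0.0753), and it fell by 1.37 ± 0.26 from P5 to P10 (adjusted p = 0.0229). The P5 to P10 call was lost without P10 array 2 or 3 (adjusted p = 0.0847 and 0.0623) and with the replicate number as a block (adjusted p = 0.051). Timp3, a matrix-bound inhibitor that also blocks ADAM17, had 7.93, 7.07 and 8.12, then 7.69, 8.38 and 7.59, then 6.47, 7.11 and 7.65. Its stages overlapped and it passed in no comparison.

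MMP14, TIMP2 and proMMP2 form a surface complex in which TIMP2 links the activator to the precursor. Within each array, the log2 signal of Timp2 minus that of Mmp14 averaged -0.37 ± 0.18 (SD over 3 arrays), -0.20 ± 0.18 and -0.94 ± 0.11 at the 3 stages in turn. That of Timp2 minus Mmp2 averaged -1.48 ± 0.16, -1.13 ± 0.12 and -1.93 ± 0.11. That of Mmp2 minus Mmp14 averaged 1.11 ± 0.019, 0.92 ± 0.27 and 0.99 ± 0.14. The offsets depend on the probe sets, and the changes between stages are what can be read. From E15.5 to P5 Timp2 moved by 0.36 against Mmp2, with no overlap of arrays, and by 0.17 against Mmp14, with overlap. From P5 to P10 it moved by -0.74 against Mmp14 and by -0.80 against Mmp2, and its P10 arrays also lay below the E15.5 arrays in both differences (-0.57 and -0.45). Mmp2 against Mmp14 overlapped in all 3 comparisons of stages. In exact 2-sided permutation tests with 3 arrays a stage the smallest possible p is 0.1, which 5 of the 9 tests reached (0.18 after Benjamini-Hochberg adjustment over the 9), so none could pass.

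**Figure D3:**
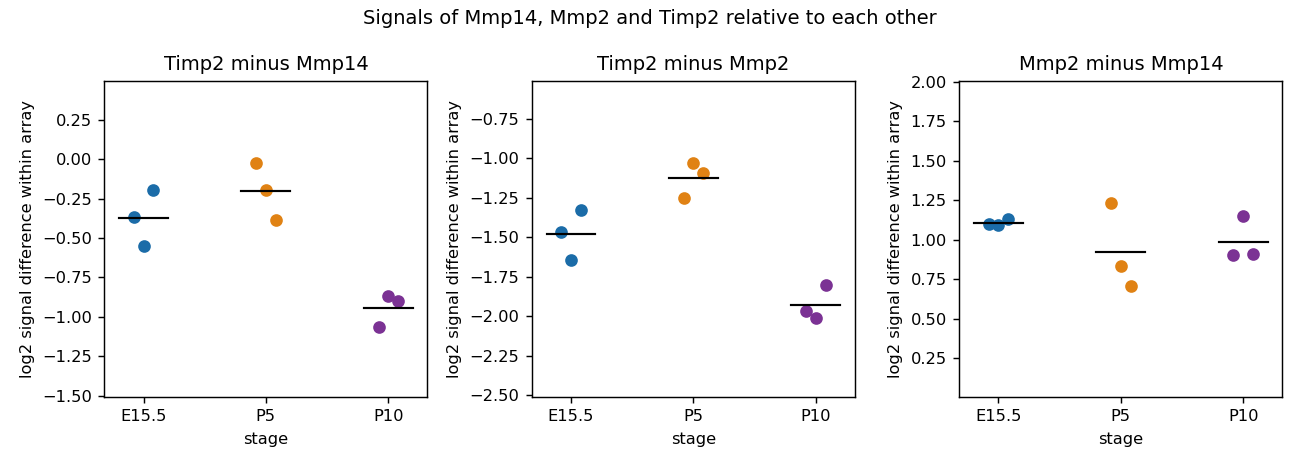
Differences of log2 signal within each array between the Timp2, Mmp14 and Mmp2 probe sets at E15.5, P5 and P10 (points are arrays, bars means). Timp2 minus Mmp14 lies at -1.07 to -0.87 on the P10 arrays, below the P5 arrays at -0.39 to -0.02, while Mmp2 minus Mmp14 overlaps between all stages.

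The ADAMTS proteases that cut versican and other hyaluronan-binding proteoglycans held some of the largest drops. Adamts1 had 11.07, 10.83 and 11.14 at E15.5, 8.64, 8.46 and 8.14 at P5, and 7.74, 7.76 and 7.68 at P10. No stages overlapped. It was 6.06-fold lower at P5 (-2.60 ± 0.13, adjusted p = 1.81e-06) and 9.77-fold lower at P10 (-3.29 ± 0.13, adjusted p = 3.29e-07). The fall of Adamts1 from P5 to P10 (-0.69 ± 0.13, adjusted p = 0.0226) did not pass without P5 array 1 or 2 or any 1 of the P10 arrays (adjusted p = 0.0518 to 0.0725). Adamts9, which also cuts versican, went from 11.25, 11.05 and 11.12 to 8.66, 9.11 and 7.37 and to 8.0, 7.89 and 8.14. Its E15.5 arrays lay above all others, and the P10 arrays fell within the wide P5 range. It fell at P5 (-2.76 ± 0.37) and was lower at P10 (-3.13 ± 0.37) (adjusted p = 0.000498 and 0.000185). Adamts5, the main aggrecanase of cartilage, had 9.78, 9.48 and 10.30, then 8.08, 8.06 and 7.96, then 7.18, 7.39 and 7.36. The stages did not overlap, its differences from E15.5 were -1.82 ± 0.18 (P5) and -2.55 ± 0.18 (P10), and its difference from P5 to P10 did not pass (-0.72 ± 0.18, adjusted p = 0.0595). Of the other members of this role, Adamts15 was called lower at P10 against E15.5 (-0.46 ± 0.13, adjusted p = 0.0201), a call lost without P10 array 2 or 3 (adjusted p = 0.0512 and 0.0663). Adamts4 (6.63, 6.57 and 6.45) and Adamts8 (6.62, 6.59 and 6.47) did not pass.

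Both procollagen N-proteinase genes measured were lower after birth than at E15.5. Adamts3, which removes the N-propeptide of procollagen and also activates VEGF-C, had 8.22, 8.0 and 8.43 at E15.5, 7.09, 6.88 and 6.95 at P5, and 7.02, 6.83 and 7.13 at P10. All E15.5 arrays were above the rest, and the postnatal stages overlapped. The differences from E15.5 were -1.24 ± 0.12 at P5 and -1.22 ± 0.12 at P10 (adjusted p = 8.65e-05 and 6.98e-05). Adamts14 differed by -0.37 ± 0.11 and -0.35 ± 0.11 (adjusted p = 0.0273 and 0.0321). The P5 call of Adamts14 was lost without E15.5 array 1 or 3 or P5 array 3 (adjusted p = 0.0694 to 0.0911), and its P10 call without E15.5 array 1 or 3 or P10 array 3 (adjusted p = 0.0787 to 0.104).

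Adamts13, the von Willebrand factor protease of plasma that liver stellate cells are known to make, had 8.77, 8.22 and 9.02 at E15.5, 6.88, 6.96 and 6.99 at P5, and 6.51, 7.03 and 6.65 at P10. The E15.5 arrays stood clear of the postnatal ones, which overlapped. It differed from E15.5 by -1.72 ± 0.20 at P5 and -1.94 ± 0.20 at P10 (adjusted p = 0.000232 and 8.71e-05). Adamts12, which cuts cartilage oligomeric matrix protein, went from 8.95, 8.73 and 9.18 to 7.0, 7.10 and 6.61 and to 6.71, 6.80 and 6.59. It was 4.14-fold lower at P5 (-2.05 ± 0.15, adjusted p = 1.55e-05) and 4.77-fold lower at P10, and its relative Adamts7 (7.38, 7.27 and 7.15) did not pass. Adamts10, a microfibril-associated member, had 8.19, 8.36 and 8.41, then 7.56, 7.70 and 7.54, then 6.83, 6.87 and 6.85. The stages did not overlap, and its steps were -0.72 ± 0.074 and -0.75 ± 0.074 (adjusted p = 0.000106 and 0.00139). Adamts16, at 5.69, 5.94 and 5.79, was called higher at P5 (0.25 ± 0.076, adjusted p = 0.0316). That call was lost without E15.5 array 1 or 2, P5 array 2 or 3 or P10 array 3 (adjusted p = 0.0509 to 0.0922), and without P5 arrays 2 and 3 together the difference was 0.15.

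Of the 9 somatic ADAMs, 5 fell at P5 and 6 at P10. Adam10, the sheddase that cuts Notch receptors and cadherins, had 8.99, 8.80 and 8.78 at E15.5, 7.17, 7.37 and 7.37 at P5, and 6.36, 6.22 and 6.24 at P10. The stages did not overlap. It moved by -1.55 ± 0.086 to P5 (adjusted p = 2.88e-06) and by -1.03 ± 0.086 to P10 (adjusted p = 0.000749), and was 6.0-fold lower at P10 than at E15.5. Adam17, the sheddase of TNF and of EGF receptor ligands, went from 8.96, 8.50 and 9.0 to 7.02, 7.28 and 7.41 and to 6.71, 6.93 and 7.37. Its postnatal stages overlapped below the E15.5 arrays, and it changed by -1.58 ± 0.20 at P5 and -1.82 ± 0.20 at P10 (adjusted p = 0.000318 and 0.000106).

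The 3 meltrins and their relative Adam15 carry both a protease and an integrin-binding domain. Adam12 (meltrin alpha) had 9.70, 9.67 and 10.11 at E15.5, 7.23, 7.37 and 6.57 at P5, and 6.43, 6.42 and 6.52 at P10. Stages did not overlap, and it was 6.82-fold lower at P5 (-2.77 ± 0.20, adjusted p = 1.51e-05) and 10.3-fold lower at P10 (-3.37 ± 0.20, adjusted p = 3.34e-06). Adam19 (meltrin beta) had 8.55, 8.39 and 8.64, then 7.31, 7.23 and 7.15, then 6.86, 6.63 and 6.86. Its stages were also apart, with steps of -1.30 ± 0.091 to P5 (adjusted p = 1.15e-05) and -0.45 ± 0.091 to P10 (adjusted p = 0.0296). That second step of Adam19 did not pass without E15.5 array 1, P5 array 1 or 2 or any 1 of the P10 arrays (adjusted p = 0.0537 to 0.0916). Adam9 (meltrin gamma) had 8.86, 8.68 and 8.57, then 7.72, 7.61 and 7.94, then 7.52, 7.09 and 7.62. Its P5 and P10 arrays overlapped, and it changed by -0.95 ± 0.15 at P5 and -1.29 ± 0.15 at P10 (adjusted p = 0.00127 and 0.000162). Adam15 was called lower at P10 against E15.5 (-0.31 ± 0.090, adjusted p = 0.0253), a call lost without E15.5 array 1 or 2 or P10 array 2 or 3 (adjusted p = 0.0522 to 0.0894). Adam8 (6.26, 6.37 and 6.27) and Adam33 (7.27, 7.44 and 7.23) did not pass.

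Of the 3 neural ADAMs that lack a working catalytic site, Adam22, a receptor of the LGI proteins, fell. Its values were 5.81, 6.09 and 6.14 at E15.5, 5.16, 5.15 and 5.0 at P5, and 4.94, 4.87 and 4.87 at P10. It crossed the background level after E15.5, so its 2.17-fold drop at P10 (-1.12 ± 0.094, adjusted p = 2.27e-05) ends below that level, with means of 5.11 and 4.90 after birth. Adam11 (6.54, 6.47 and 6.48) and Adam23 (6.24, 6.42 and 6.22) did not pass. Of the 22 testis and epididymis ADAMs, 1 rose and 2 fell at P5, and 1 rose and 3 fell at P10. Adam34l had 5.24, 5.18 and 5.24 at E15.5, 6.31, 6.27 and 5.91 at P5, and 6.30, 5.63 and 5.53 at P10, above background at P5 alone. It rose by 0.94 ± 0.20 at P5 (adjusted p = 0.00546). Its P10 call (0.60 ± 0.20, adjusted p = 0.0411) was lost without any 1 of the E15.5 arrays, P5 array 1 or 2, or P10 array 1 (adjusted p = 0.0523 to 0.102), and without P10 array 1 the difference was 0.36. Adam5 differed from E15.5 by -0.32 ± 0.063 at P5 and again at P10 (adjusted p = 0.00421 and 0.00362) with stage means of 4.58, 4.26 and 4.26. Adam4, also near background, was called lower at P5 and P10 (-0.67 ± 0.21 and -0.75 ± 0.21, adjusted p = 0.0343 and 0.0192). The P5 call of Adam4 was lost without E15.5 array 2 or 3, P5 array 2 or 3 or P10 array 2 or 3 (adjusted p = 0.0521 to 0.108), and its P10 call without E15.5 array 2 or 3 or P10 array 2 or 3 (adjusted p = 0.0504 to 0.0627). Adam1a was called lower at P10 against E15.5 (-0.45 ± 0.13, adjusted p = 0.0254), a call lost without E15.5 array 2 or 3 or P10 array 2 (adjusted p = 0.0764 to 0.0855).

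Members differed in how far they fell in each interval. The change from P5 to P10 minus the change from E15.5 to P5, a contrast chosen after seeing the data, was called positive for 12 members and negative for 3, beside 7.93% and 8.7% of all genes (16.6% in all). The P5 arrays enter both intervals, and the first interval includes birth. The first interval is also the longer one, and the changes were not scaled to its length. A steady fall per day would therefore also give a positive value. The 12, whose step after P5 was less negative than the step before, were Adam10, Adam12, Adam17, Adam19, Adam22, Adamts1, Adamts3, Adamts5, Adamts9, Adamts12, Adamts13 and Mmp16. Of these, Mmp16 (1.74 ± 0.16, adjusted p = 0.000196), Adamts1 (1.91 ± 0.23, adjusted p = 0.000828), Adamts12 (1.85 ± 0.26, adjusted p = 0.00208) and Adam12 (2.17 ± 0.35, adjusted p = 0.00403) passed under all 16 alternatives tried. The background level bounds how large a later fall can be read. Mmp16, Adam12 and Adamts12 averaged 7.19, 7.06 and 6.90 at P5, so a later fall as large as their first would have ended below it. For Adamts1, at 8.41, such a fall would have ended close to that level. Adam10, Adam17, Adamts3, Adamts9 and Adamts13 averaged 7.30, 7.24, 6.97, 8.38 and 6.94 at P5. For them too, such a fall would have ended below that level. The part of this limit in the calls was not tested. The later fall of Adam22 cannot be measured here, as its means at P5 and P10 (5.11 and 4.90) both lie below the background level. Timp2 was the member called as falling more after P5 than before (-0.74 ± 0.19, adjusted p = 0.0331). Its call was lost without E15.5 array 3, P5 array 1 or 2, or P10 array 1 or 2 (adjusted p = 0.0541 to 0.12) and with the replicate number as a block (adjusted p = 0.0549), and it was -0.49 (adjusted p = 0.163) after quantile normalisation. Mmp19 (-1.13 ± 0.23, adjusted p = 0.0106) was negative, with a rise of 1.2 before P5 and 0.06 after it. Adam34l (-1.29 ± 0.34, adjusted p = 0.0345) lost its call without any 1 of the E15.5 arrays, P5 array 1 or 2, or P10 array 2 or 3 (adjusted p = 0.0615 to 0.119). Mmp2 (0.42 ± 0.20), Mmp14 (0.17 ± 0.15), Adamts10 (-0.03 ± 0.13) and Timp1 (-0.68 ± 0.46) did not pass.

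Some of the other calls of a smaller later fall did not hold when single arrays were left out. Adam22 did not pass without P5 array 3 (adjusted p = 0.0661), Adamts13 without P5 array 1 or 2 (adjusted p = 0.072 and 0.0632), and Adam17 without E15.5 array 1 or 3, P5 array 1 or 2 or P10 array 2 (adjusted p = 0.054 to 0.11). Adamts5 was lost without E15.5 array 1 or any 1 of the 6 postnatal arrays (adjusted p = 0.0624 to 0.119), and Adam10 without any 1 of the 9 arrays (adjusted p = 0.0576 to 0.162). Adamts9 lost the call without any 1 of the E15.5 or P10 arrays or P5 array 1 (adjusted p = 0.0626 to 0.0798). Without P5 array 3, which had its low value of 7.37, the contrast of Adamts9 was 1.38 (adjusted p = 0.0109) in place of 2.39 ± 0.64. With the replicate number as a block, Adam10 (adjusted p = 0.0937), Adamts5 (adjusted p = 0.0679) and Adamts9 (adjusted p = 0.0546) also lost this call.

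**Figure D4:**
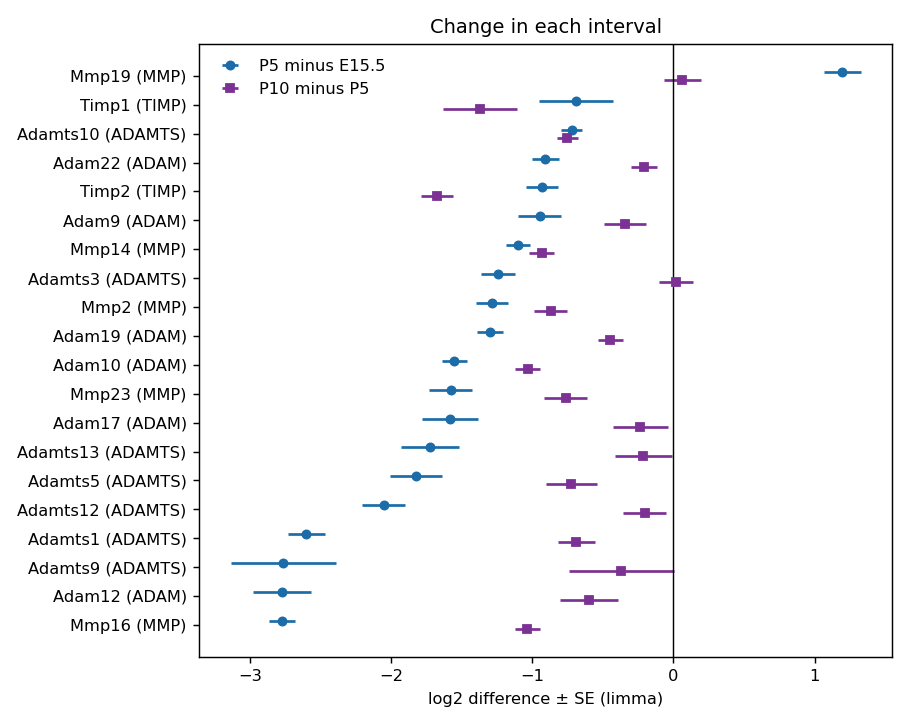
Log2 difference ± SE (limma, n = 3 arrays per stage) from E15.5 to P5 (blue circles) and from P5 to P10 (purple squares) for the 20 members shown by array. Mmp16 and Adam12 fell by 2.77 in the first interval, and Timp2 changed by -0.93 in the first and -1.67 in the second.

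Of the 78 members, 3 had several probe sets, which allowed a look within a gene. All 16 Adamts3 sets were lower at P5 and at P10 than at E15.5 (-3.01 to -0.83 at P5), and their differences between P5 and P10, from -0.22 to 0.051, did not pass. All 6 Adamts9 sets fell at P5 (-4.67 to -1.30) and were lower at P10, and 1 of 6 fell from P5 to P10. Adamts17, an enzyme linked to connective tissue and short stature, behaved otherwise. Its brightest set, which stands for the gene here, had 8.52, 8.41 and 8.31 and did not pass, while another set went from 8.32 to 6.68 and 6.0. That set changed by -1.64 ± 0.12 at P5 (adjusted p = 1.58e-05) and by -0.68 ± 0.12 from P5 to P10 (adjusted p = 0.0172), and 2 of the 5 Adamts17 sets were called lower at P5. Which transcripts each set reads is not stated in the labels or files.

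**Figure D5:**
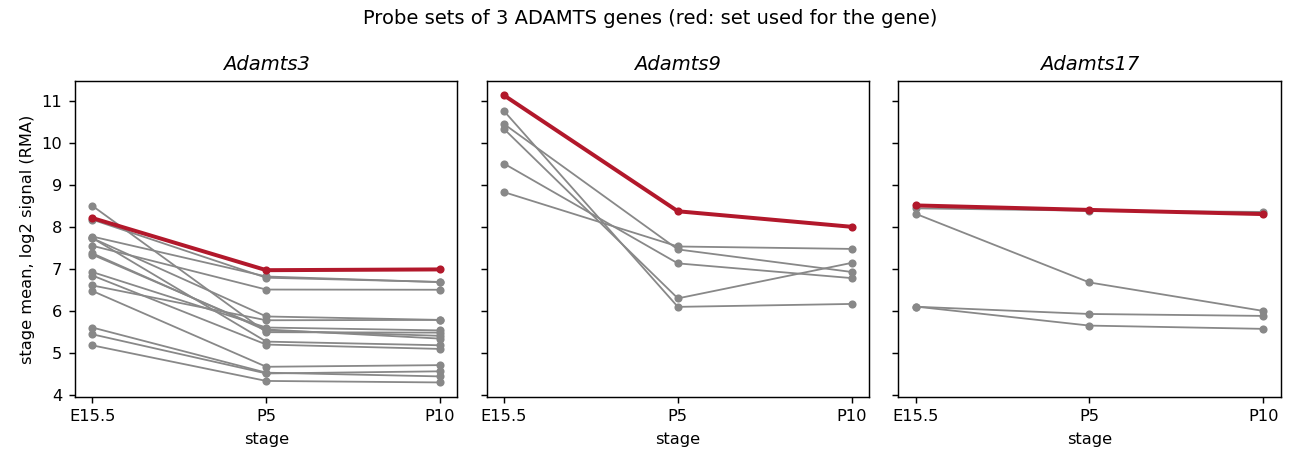
Stage means (log2 signal) of every probe set of Adamts3 (16 sets), Adamts9 (6 sets) and Adamts17 (5 sets), with the set used for the gene in red. The Adamts17 set used stays near 8.4, while another goes from 8.32 to 6.0.

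The genes listed as activators or inhibitors of proteases moved in both directions. Among all genes, 17.7% were called lower and 17.9% higher at P5, and 18.6% and 20.1% at P10 against E15.5. From P5 to P10 these shares were 2.89% and 2.76%. The lists below are short, and their counts were not tested against these shares. Of 16 measured activators and inhibitors, 5 rose and 6 fell at P5, 2 rose and 6 fell at P10, and 4 fell from P5 to P10, with median differences of -0.057 at P5 and -0.29 at P10 beside 0.029 and 0.024 for all genes. Reck, a membrane-anchored MMP inhibitor, differed from E15.5 by -2.05 at P5 and -2.83 at P10. A2m, the protease trap alpha-2-macroglobulin, differed by -1.90 and -3.03. Its relatives Pzp and Mug1 were higher at P5 than at E15.5 (1.18 and 1.25). At P10 against E15.5 Mug1 was higher by 1.05 and Pzp did not pass (0.35), and Pzp changed by -0.84 from P5 to P10. Cst3, the gene of cystatin C, is counted in this list although cystatin C inhibits cysteine proteases, and it differed by -1.07 and -1.48. Tfpi2, a Kunitz inhibitor, rose by 1.58 at P5 and 1.59 at P10. Of 9 partners of ADAM10 and ADAM17, 3 fell at P5 and 3 at P10 (medians -0.028 and -0.16), among them Rhbdf1, the iRhom1 carrier of ADAM17 (-0.50 and -0.77), and Tspan5, an ADAM10 tetraspanin (-0.75 and -0.81). The stage means of Tspan5 (5.64, 4.89 and 4.83) all lay below the background level. Of 7 ADAMTS-like proteins, which lack the protease domain, 1 rose and 2 fell at P5 and 4 fell at P10 (medians -0.15 and -0.25). Of 7 astacin proteases and their enhancers, 2 fell at P5 and 3 at P10 (medians -0.002 and -0.057), among them Pcolce, the enhancer of procollagen C-proteinase (-1.59 and -2.43).

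Genes of known substrates were counted alike, beside the same shares of all genes. Of 11 substrates of ADAMTS proteases, 6 fell at P5, 6 at P10 and 4 from P5 to P10 (medians -0.61, -1.38 and -0.11). Vcan, the proteoglycan versican, differed by -2.19 at P5 and -4.12 at P10 from E15.5, and by -1.93 from P5 to P10. Reln, reelin, which is also one of the stellate markers above, differed by -2.43 and -2.51. Col1a2, a chain of type I collagen, differed by -0.95 and -1.92. Of 18 measured membrane proteins that ADAM10 or ADAM17 release, 2 rose and 7 fell at P5 and 2 rose and 8 fell at P10 (medians -0.003 and -0.35). The cadherin gene Cdh2 (-2.43 and -2.90), Vcam1 (-2.03 and -2.35), the growth factor gene Csf1 (-2.09 and -2.73) and Notch2 (-1.69 and -2.07) were among those that fell. All these comparisons share the E15.5 arrays, so the P5 and P10 values of a gene are not separate evidence.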

How the data were processed

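The 9 samples of sorted liver stroma were hybridised to Affymetrix arrays as biotin-labelled cRNA from Trizol-extracted total RNA, per the labels. The authors deposited log2 values, made by RMA (robust multi-array averaging), per the submitters' processing notes. The tools named there are Affymetrix Expression Console and version 2.0 of the Transcriptome Analysis Console. RMA subtracts background, quantile-normalises and summarises probes. No annotation build is named in the labels or files.

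Of 35556 probe sets, 21789 had 1 gene symbol. Each of 19938 genes was read by its set with the highest mean over 9 arrays. In any pair of arrays, 2.97% to 5.92% of genes had equal values, which lowers their SD. Stage was the only term in limma 3.58.1 (R 4.3.3; degrees of freedom 6 residual, 2.22 prior), with 2-sided moderated tests and Benjamini-Hochberg adjustment over all genes. The script was tested on simulated data. Signals of 1203 chemosensory receptor genes set the background level. Precision is limited by 3 arrays per stage. Arrays with the same replicate number were not alike (r of residuals -0.08 to 0.069, 0 of 9 pairs over 0.1), so none were paired. Members were given values on every array when called with a difference of at least 2-fold and above background at a stage. Timp3 and Adam34l, which did not meet this rule, were also given by array. Up to 4 called genes per pathway list and comparison were named, and Mug1 in addition. Members and lists were chosen with earlier results of these data known. Exact permutation tests used scipy 1.17.1, and figures matplotlib 3.10.9. Alternatives were other scalings, a filter on dim genes, the mean of probe sets, array weights, a replicate block and leaving out arrays.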

Additional observations from a re-analysis of the deposited data

How the results depend on the processing

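Of the calls on members, 22 of 25 at P5 and 23 of 30 at P10 against E15.5 and 6 of 10 at P10 against P5 held in every alternative that could be fitted, as did 4 of 15 for the difference between the intervals, and 0 reversed. There were 16 alternatives, and 15 for Adam4, Adam5, Adam22 and Mmp9, which the filter on dim genes left out. With each array centred on the median of all genes, 5 members were higher at P5 and 13 at P10 against E15.5. Leaving out 1 array gave 2 to 4 members higher and 20 to 23 lower at P5, 2 to 3 higher and 22 to 28 lower at P10 against E15.5, and 0 higher and 6 to 12 lower at P10 against P5. The 6 came without P10 array 2 or 3 and the 12 without P5 array 3. For the difference between the intervals it gave 8 to 10 positive and 1 to 6 negative, the 1 without E15.5 array 3, P5 array 2 or P10 array 2 and the 6 without P5 array 3. Without P5 arrays 2 and 3, chosen after seeing the data, 5 were positive and 0 negative, and P5 array 1 is then assumed to vary like the other stages (limma). Members near background numbered 36 to 38 without 1 array and 11 with the median of the receptor genes as the level. The cause of these shifts was not tested.

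With the replicate number as a block, although the pairing check found no link between same-numbered arrays, 4 members were higher and 22 lower at P5, 3 and 27 at P10 against E15.5, and 0 and 9 at P10 against P5. It gave 9 positive and 2 negative for the difference between the intervals. The block ended the calls of Adam4 at P5 (adjusted p = 0.0508), of Timp1 from P5 to P10 (adjusted p = 0.051) and, for the difference between the intervals, of Adam10, Adamts5, Adamts9 and Timp2 (adjusted p = 0.0937, 0.0679, 0.0546 and 0.0549). It ended no other call on a member.

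Of the other settings, quantile normalisation ended the calls of Adamts16 at P5, of Adam15, Adam1a, Adamts14 and Mmp17 at P10 against E15.5, of Adam19 from P5 to P10 and of Timp2 for the intervals. Centring ended those of Adam15, Adam1a, Adamts14 and Mmp17 at P10 against E15.5. Array weights ended those of Adamts14 at P5 and of Adam10 and Adamts5 for the intervals, and the filter on dim genes that of Adam10 for the intervals.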
